A study of Mus musculus with 17 samples.

Results

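*Gcg*, *Sst*, *Ppy*, *Pyy*, *Npy*, *Gast* and *Cck* were followed in RNA from sorted mouse β cells. They encode the islet peptide hormones other than insulin and were taken by gene symbol, 7 of the 54456 genes by symbol in the deposited tables. All 7 passed the filter on low counts, among 22733 genes tested. The 17 samples came from islets of male mice kept for 3 days at 2.8 mM (low) or 16.7 mM (high) glucose, after which living, tdTomato-positive cells were sorted and their polyA RNA was sequenced. Control β cells, labelled WT, carried RIP-Cre and the *Rosa26-tdTomato* reporter and gave 3 samples at low and 4 at high glucose. *Pcbp2*βKO β cells carried RIP-Cre, the reporter and *Pcbp2* fl/fl and gave 5 samples at each concentration. RIP-Cre is driven by the rat insulin promoter, so the reporter marks cells in which that promoter was active at some time, and every sample, controls included, carried the Cre transgene. Whether a sample held 1 animal or several, and the age of the mice, were not given in the sources used here. p-values therefore measure the spread between these samples.

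An islet hormone is made as a prohormone, cut by convertases and, for several of these peptides, given an amide at its C-terminal end. Glucagon, from *Gcg*, is the α cell hormone that raises blood glucose, and the same precursor can yield glucagon-like peptides. Somatostatin, from *Sst*, is the δ cell hormone that restrains both insulin and glucagon release. Pancreatic polypeptide (*Ppy*), peptide YY (*Pyy*) and neuropeptide Y (*Npy*) form a family of related peptides with shared receptors. Gastrin (*Gast*) and cholecystokinin (*Cck*) are best known from stomach and gut, act on the same receptor pair, and have been seen in the developing or stressed islet.

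On the GRCm39 assembly, with GENCODE M39 annotation, *Ppy* (chromosome 11, 101990756 to 101992145, minus strand) and *Pyy* (chromosome 11, 101997502 to 101998658, minus strand) are neighbours with 5356 bases between them. *Gast* lies on chromosome 11 as well (100218410 to 100227823, plus strand), *Gcg* on chromosome 2 (62304873 to 62313997, minus strand), *Npy* on chromosome 6 (49799026 to 49806489, plus strand), *Cck* on chromosome 9 (121315695 to 121324863, minus strand) and *Sst* on chromosome 16 (23707321 to 23711733, minus strand). Since related genes can share reads, the coding stretch of 30 bases that ends with the glycine codon used for the C-terminal amide is shown for each member of the 2 families. This end of the peptide is conserved in both families. Capitals mark bases that are the same in all members of a family, and the sequences are from the GENCODE transcripts, 5′ to 3′ on the coding strand.
Npy: aTCAAtctcaTcACCaGaCagaGaTATGGc
Pyy: cTCAAcctggTcACCcGgCagcGgTATGGa
Ppy: aTCAAcacacTgACCaGgCctaGgTATGGg
Gast: gaaGAggcCtacGGaTGGATGGAcTTTGGC
Cck: cggGActaCatgGGcTGGATGGAtTTTGGC
In each NPY family gene the stretch runs from exon 2 into exon 3, across an intron (*Npy* 49800743 to 49804475, *Pyy* 101997876 to 101998013, *Ppy* 101991103 to 101991369), and in the gastrin pair it lies in exon 3 (*Gast* 100227669 to 100227698, *Cck* 121319170 to 121319199). All 3 NPY family genes share 16 of the 30 bases, *Npy* and *Pyy* share 21, and *Gast* and *Cck* share 19. Over their whole transcripts, 0 of the 31-base words of any of the 7 genes occurred, on either strand, in a quantified transcript of another gene.

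Sequencing depth ranged from 47385513 to 82419400 estimated counts per sample. *Pcbp2*, the targeted gene, was 50.7 to 73.4 CPM (counts after correction for library size) in control and 15.5 to 19.2 in knockout samples at low glucose, and 35.0 to 45.4 and 5.81 to 10.03 at high glucose. *Ins2* took 4.92 to 10.4% of the counts at low and 18.2 to 25.7% at high glucose, and the 10 β cell markers summed to 67230 CPM or more in every sample. The 7 hormone genes together took 0.225 to 0.410% in control and 0.378 to 1.67% in knockout samples at low glucose. At high glucose they took 0.0734 to 0.106% in 6 samples and 0.241 to 0.292% in the other 3, which were control replicate 4 and knockout replicates 4 and 5. These 3 samples were known from earlier results of these data to stand apart, and values without them are given where a call changes. Since they held the largest share of hormone counts at high glucose, leaving them out lowers *Gcg*, *Sst*, *Ppy* and *Pyy* there and is no separate check. Control replicate 4 and knockout replicate 5 held the lowest *Gast* and *Cck* of their groups, so leaving these samples out raises *Gast* and *Cck* there. In sorted bulk RNA, fewer cells of another type and less RNA per cell cannot be told apart, and this holds for every hormone below.

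To set the genes beside each other, levels were compared in TPM (abundance per transcript length, scaled to the same total in every sample). *Ppy* had the highest mean TPM in all 4 groups, from 780 ± 582 (SD, n = 4) in control cells at high glucose to 9151 ± 5341 (SD, n = 5) in *Pcbp2*βKO cells at low glucose. *Gcg* followed in 3 groups, with 1716 ± 1014 (SD, n = 3) in control cells at low glucose, and its range overlapped that of *Ppy* in every group. *Pyy* was next, with 1024 ± 249 in control cells at low glucose, and by mean changed places with *Gcg* in knockout cells at high glucose (446 for *Pyy* and 413 for *Gcg*). Sample by sample, *Pyy* exceeded *Gcg* there in 4 of 5. In control cells at high glucose *Gcg* exceeded *Pyy* in only 1 of 4 samples, replicate 4, with 1212 TPM of *Gcg*. By mean, *Gcg* stayed above *Pyy* in that control group (440 and 400). At high glucose, *Pyy* above *Gcg* in most samples was thus not particular to the knockout, although the exchange of means was. The ranges of *Gcg*, *Ppy* and *Pyy* overlapped each other in most groups, although *Ppy* exceeded *Gcg* in all 4 control and *Pyy* in all 5 knockout samples at high glucose. *Sst* came next in every group, with means from 192 to 1206 TPM, and did not overlap *Npy* in any group. *Npy*, *Gast* and *Cck* came last. Only in control cells at low glucose were *Npy* (73.4 TPM), *Gast* (1.20 TPM) and *Cck* (0.386 TPM) apart from each other by range. Relative to *Ins2* in the same sample, the TPM of *Ppy* was 0.0823 to 5.87%, that of *Gcg* 0.0176 to 6.40% and that of *Cck* at most 0.00171%.

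**Figure D1:**
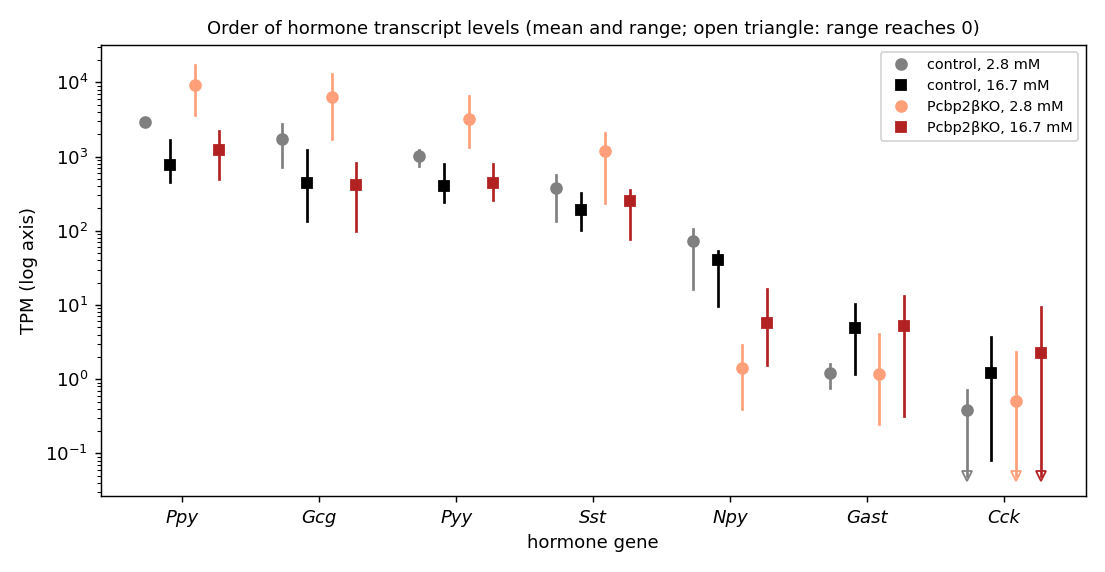
Mean TPM (symbols, log axis) and range over samples (bars) of the 7 hormone genes in the 4 groups, with open triangles where the range reaches 0. *Ppy*, *Gcg* and *Pyy* overlap at the top, *Sst* lies above *Npy* in every group, and *Npy* is at 1.42 and 5.64 TPM in knockout cells against 73.4 and 39.9 in control cells.

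*Npy* was the hormone gene that differed between genotypes. NPY is a neuropeptide of nerves and of immature β cells and acts through inhibitory receptors. At low glucose, the control samples held 34.7, 6.29 and 33.8 CPM of *Npy* and the *Pcbp2*βKO samples 0.134, 0.258, 0.445, 0.416 and 1.09 CPM. The highest knockout sample lay below the lowest control sample. This is a mean of 24.9 ± 16.2 (SD, n = 3) against 0.469 ± 0.369 CPM (SD, n = 5), from 12 to 109 rounded counts in the knockout libraries. The fitted log2 fold change was -5.71 (SE 0.81), with an adjusted p of 0.000421 in the quasi-likelihood test of edgeR. *Npy* was 1 of 7 hormone genes called for the knockout at low glucose, in a comparison in which 2.05% of all genes tested were called, 0.255% higher and 1.79% lower (the thresholds for a call were 0.05 for the adjusted p and 1.5 for the fold change). It was called under every alternative tried, with log2 fold changes of -6.32 to -5.40 when 1 sample was left out in turn.

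At high glucose the control samples held 42.2, 6.61, 31.3 and 22.5 CPM of *Npy*, and the *Pcbp2*βKO samples 3.20, 0.963, 2.34, 1.56 and 10.4 CPM. Here the groups touched, because knockout replicate 5 exceeded control replicate 2. The log2 fold change was -2.79 (SE 0.69, edgeR adjusted p = 0.045), and *Npy* was again the 1 of 7 called, among 1.71% of all genes (0.29% higher and 1.42% lower). This call was close to its threshold: it was lost when libraries were scaled by total counts (adjusted p = 0.0637), when counts were corrected for transcript length (0.0517), when only the 2 groups were fitted (0.0928) and on leaving out any of 11 samples (control replicates 1 and 3 and knockout replicates 2, 3 and 4 at low glucose, control replicates 1 and 3 and knockout replicates 1 to 4 at high glucose). Log2 fold changes were -3.67 to -2.44 over all samples left out in turn. Without control replicate 1 at high glucose it was -2.44 (adjusted p = 0.123), and without control replicate 3 it was -2.68 (adjusted p = 0.131).

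*Npy* rose with glucose in knockout cells. The 5 *Pcbp2*βKO samples went from a mean of 0.469 to 3.70 CPM, a log2 change of 2.96 (SE 0.71, edgeR adjusted p = 0.00379), although the highest sample at low glucose, replicate 5, lay above the lowest at high glucose, replicate 2. The call was lost in limma on log2(TPM + 1), at 1.18 (adjusted p = 0.0936). Control cells had means of 24.9 and 25.6 CPM, a log2 fold change of 0.04 (SE 0.75, adjusted p = 0.982), which was -0.38 (adjusted p = 0.779) with total counts. The difference between these 2 glucose responses was 2.93 on the log2 scale (SE 1.01, edgeR adjusted p = 1), so it did not pass the test across genes. For the interaction, 0 of the 7 genes were called, against 0.0044% of all genes, and 2 of them, *Npy* and *Pyy*, had an unadjusted p under 0.05. DESeq2 called 0 of the 7 as well, and 0.141% of all genes.

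**Figure D2:**
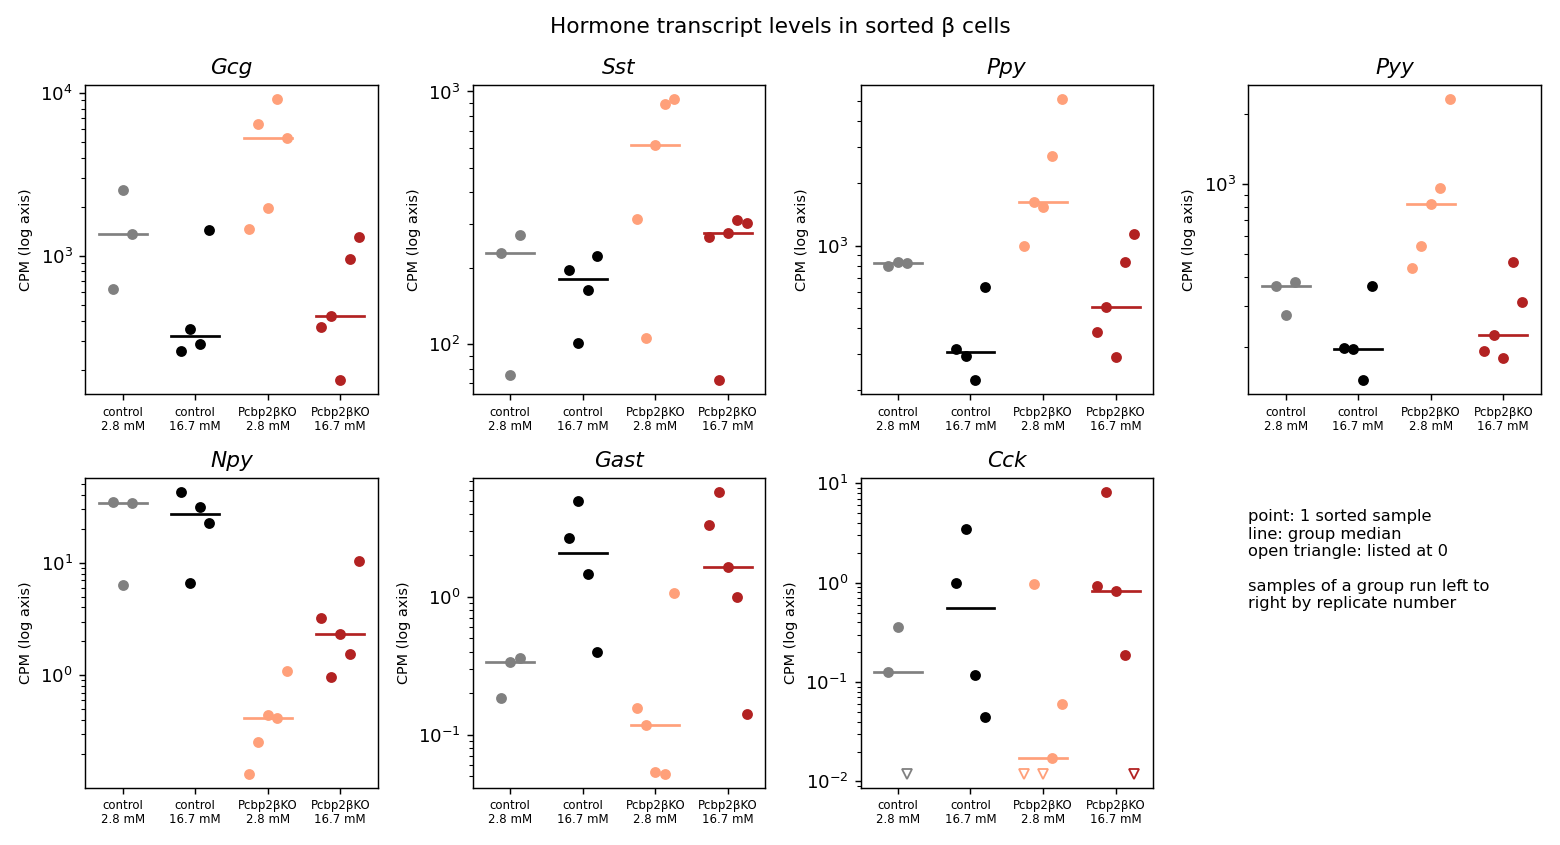
CPM of each hormone gene in every sample (points, log axis), by genotype and glucose, with the group median as a line and open triangles for samples listed at 0. *Npy* lies between 0.134 and 1.09 CPM in the 5 knockout samples at low glucose and at 6.29 CPM or more in every control sample, and *Gcg* lies at 1452 CPM or more in every knockout sample at low glucose and at or below 1300 CPM at high glucose.

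In *Pcbp2*βKO cells the glucose comparison called 5 of the 7 genes, *Gcg*, *Ppy* and *Pyy* lower and *Npy* and *Gast* higher at high glucose, where 23.9% of all genes tested were called, 13.5% higher and 10.5% lower. Scaling by total counts took the median log2 fold change of all genes from 0.01 to -0.465 here, with 1484 genes called higher and 6364 lower in place of 3060 and 2376, and the 5 directions held. *Gcg*, the glucagon gene, was 1452, 6474, 1951, 9158 and 5307 CPM at low and 363, 425, 172, 956 and 1300 CPM at high glucose. No sample at high glucose reached the lowest sample at low glucose. Its log2 fold change was -2.92 (SE 0.66, edgeR adjusted p = 0.0025). *Ppy*, which encodes the hormone of the PP cell, was 992, 1619, 1534, 2707 and 5111 CPM at low and 383, 505, 290, 833 and 1142 CPM at high glucose, and the groups overlapped by 1 sample on either side. That gave a log2 fold change of -1.92 (SE 0.43, adjusted p = 0.00237). *Pyy* was 439, 544, 818, 963 and 2313 CPM at low and 194, 226, 180, 463 and 314 CPM at high glucose. Its groups met only where replicate 4 at high glucose passed replicate 1 at low glucose. The log2 fold change was -1.88 (SE 0.39, adjusted p = 0.0015).

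*Sst* was not called in this comparison. The *Pcbp2*βKO samples held 312, 106, 615, 891 and 934 CPM at low and 265, 72.0, 274, 310 and 302 CPM at high glucose, and the ranges overlapped. Each sample at high glucose lay below the same-numbered one at low glucose, but the numbers were not taken to pair knockout samples. The log2 fold change was -1.22 (SE 0.49, adjusted p = 0.0671 by edgeR). It passed the threshold with libraries scaled by total counts (-1.70, adjusted p = 0.0126), without the filter on low counts (0.0265), in limma on TPM, with the replicate number as a block (-1.07, adjusted p = 0.00253) and without knockout replicate 2 at low glucose (-1.49, adjusted p = 0.013). The median log2 fold change of all genes was also negative with total counts (-0.465) and in limma (-0.712 with 0.1 and -0.325 with 1 added to TPM).

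In control cells the glucose comparison called 0 of the 7 genes in edgeR, where 13.9% of all genes were called (7.16% higher and 6.7% lower), and 1 of them, *Gast*, in DESeq2. By unadjusted edgeR p-values *Ppy* and *Gast* were under 0.05. *Gcg* was 625, 2542 and 1368 CPM at low and 260, 352, 289 and 1448 CPM at high glucose. At high glucose 3 of the 4 samples lay below all at low glucose, and replicate 4 lay among them. The log2 fold change was -1.36 (SE 0.73, adjusted p = 0.231), and without replicate 4 at high glucose it was -2.31 (adjusted p = 0.0276). *Ppy* was 797, 835 and 824 CPM at low and 318, 294, 224 and 631 CPM at high glucose, with no overlap. Its log2 fold change was -1.16 (SE 0.50, adjusted p = 0.126) and -1.54 (adjusted p = 0.0398) without that replicate. *Pyy* was 366, 276 and 383 CPM against 198, 197, 145 and 368 CPM, with only replicate 4 at high glucose within the range at low glucose, for a log2 fold change of -0.59 (SE 0.46, adjusted p = 0.43). *Sst* was 229, 75.5 and 270 CPM against 198, 101, 163 and 224 CPM, wholly overlapping, with a log2 fold change of -0.16 (SE 0.58, adjusted p = 0.895).

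Without the 3 samples that stand apart, *Gcg* (-2.35, edgeR adjusted p = 0.00995), *Ppy* (-1.58, adjusted p = 0.0138) and *Gast* (3.34, adjusted p = 0.0151) were called for glucose in control cells, where 22% of all genes were then called. The control sample left out, replicate 4, had the highest *Gcg* and *Ppy* and the lowest *Gast* of its group, so the direction of these shifts was set by the choice. The replicate numbers were taken to pair the control samples, since same-numbered samples deviated together. The number was fitted as a block over all 17 samples, so knockout samples shared the blocks although the numbers were not taken to pair them. In that fit edgeR called 4 of the 7 genes for glucose in control cells: *Gcg* at -2.04 (adjusted p = 0.00123), *Ppy* at -1.54 (9.08e-05), *Pyy* at -0.91 (0.0243) and *Gast* at 2.97 (0.041). This compares with 21% of all genes called under the block. Within the numbered pairs, *Gcg*, *Ppy* and *Pyy* were lower and *Gast* was higher at high glucose in each of the 3 pairs. *Gcg* fell from 625 to 260, from 2542 to 352 and from 1368 to 289 CPM.

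**Figure D3:**
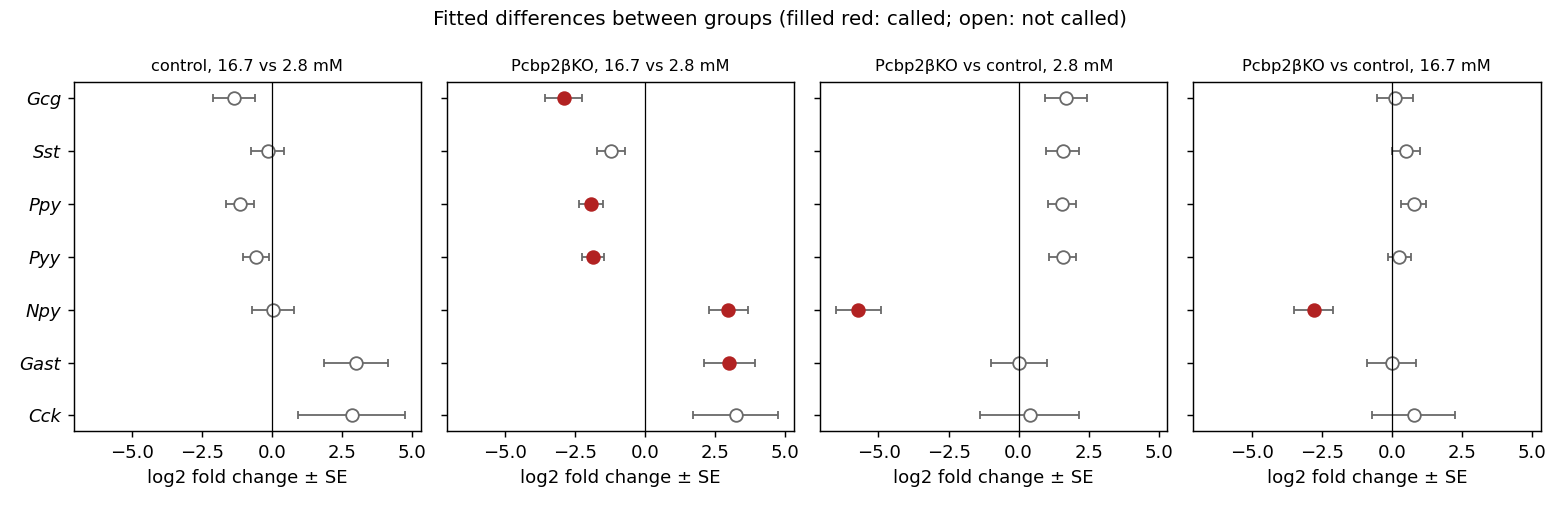
Log2 fold change with its SE (horizontal bars) of the 7 hormone genes in the 2 glucose and the 2 genotype comparisons, filled red where called. *Npy* is the only filled point in both genotype comparisons (-5.71 and -2.79), and 5 of 7 points are filled for glucose in knockout cells against 0 for glucose in control cells.

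Between genotypes at low glucose, *Gcg*, *Sst*, *Ppy* and *Pyy* all had higher fitted values in *Pcbp2*βKO cells and none was called. The log2 fold changes were 1.69 (SE 0.75, edgeR adjusted p = 0.346) for *Gcg*, 1.58 (SE 0.59, 0.233) for *Sst*, 1.55 (SE 0.51, 0.152) for *Ppy* and 1.57 (SE 0.47, 0.104) for *Pyy*. The 5 knockout samples of *Ppy* (992 to 5111 CPM) lay above all 3 control samples (797 to 835 CPM), and those of *Pyy* (439 to 2313 CPM) above 276 to 383 CPM. The ranges of *Gcg* and *Sst* overlapped. *Ppy* and *Pyy* passed the threshold in DESeq2 (adjusted p = 0.0271 and 0.0124), in edgeR without the filter on low counts (0.0493 and 0.0231) and without the 3 samples that stand apart (0.0462 and 0.0476). With the replicate number as a block, *Ppy* was called at 0.75 (edgeR adjusted p = 0.041) and *Pyy* was not called. At high glucose the log2 fold changes were 0.13 (SE 0.65) for *Gcg*, 0.51 (SE 0.52) for *Sst*, 0.78 (SE 0.45) for *Ppy* and 0.28 (SE 0.41) for *Pyy*, with adjusted p of 0.537 to 0.971. The knockout and the glucose comparisons share the *Pcbp2*βKO samples at low glucose, in which these 4 genes had their highest group means.

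*Gast* and *Cck*, the genes of the gastrin family, were near the floor of detection. *Gast* was 0.185, 0.335 and 0.361 CPM in control cells at low and 2.68, 4.95, 1.46 and 0.396 CPM at high glucose. All control samples at high glucose lay above those at low glucose, replicate 4 by the least. In *Pcbp2*βKO cells it was 0.156, 0.117, 0.053, 0.052 and 1.07 CPM at low and 3.35, 5.76, 1.65, 0.992 and 0.141 CPM at high glucose. There replicate 5 went against the other 4, with the highest value at low and the lowest at high glucose. The log2 fold change with glucose was 3.00 in both genotypes, with an SE of 1.14 and an adjusted p of 0.0826 in control and an SE of 0.91 and an adjusted p of 0.0177 in knockout cells by edgeR. The latter call was lost without knockout replicate 2 at high glucose (2.36, adjusted p = 0.0622) and in limma on log2(TPM + 1) (1.32, adjusted p = 0.0526). In control cells *Gast* passed the threshold without replicate 4 at high glucose (3.38, adjusted p = 0.04), without knockout replicate 5 at low glucose (3.00, adjusted p = 0.0357) and without knockout replicate 5 at high glucose (3.00, adjusted p = 0.0495). Between genotypes the log2 fold change of *Gast* was 0.01 (SE 1.01, edgeR adjusted p = 0.998) at low and 0.00 (SE 0.88, adjusted p = 0.999) at high glucose.

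*Cck* was called in no comparison of the main fit. It was 0.127, 0.361 and 0 CPM in control cells at low and 1.00, 3.49, 0.118 and 0.044 CPM at high glucose, and 0, 0.974, 0, 0.017 and 0.060 CPM against 0.924, 8.11, 0.831, 0.188 and 0 CPM in knockout cells. In each group replicate 2 was the highest. Of the 17 libraries, 6 held 3 or fewer counts of *Cck*. A count of 0 allows up to 3 counts, or 0.0300 to 0.0613 CPM depending on the library, which covers counting error only. Fitted log2 fold changes with glucose were 2.84 (SE 1.91, edgeR adjusted p = 0.351) in control and 3.23 (SE 1.52, adjusted p = 0.12) in knockout cells. The latter was 6.52 (adjusted p = 0.0149) without knockout replicate 2 at low glucose. It was also called with the replicate number as a block (3.48, adjusted p = 0.0146) and without the 3 samples that stand apart (3.91, adjusted p = 0.0367). For glucose in control cells, *Cck* was called with control samples alone and the replicate number as a block (3.31, edgeR adjusted p = 0.000493). That fit was chosen after seeing the data, and it called 28.7% of all genes.

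Of the 21 pairs of hormone genes, 4 correlated among samples of the same group by Pearson's r, 3 with a positive and 1 with a negative sign. After the group mean of log2 CPM was taken away, *Ppy* and *Pyy* correlated with Pearson's r = 0.904 (permutation, adjusted p = 0.00294 over the 21 pairs) and Spearman's rho = 0.885 (adjusted p = 0.00336) over 17 samples, and r was 0.906 without the 2 samples farthest from the median. *Gcg* and *Ppy* followed, with r = 0.784 (permutation, adjusted p = 0.0147), rho = 0.787 (adjusted p = 0.00504) and r = 0.694 without 2 samples. That relation was r = 0.593 (permutation, adjusted p = 0.335) without the 3 samples that stand apart, each of which was high in both genes. *Sst* and *Npy* had r = 0.681 (permutation, adjusted p = 0.0386), rho = 0.593 (adjusted p = 0.0561) and r = 0.745 without 2 samples. *Sst* and *Cck* ran opposite, with r = -0.699 (permutation, adjusted p = 0.0219), rho = -0.613 (adjusted p = 0.0301) and r = -0.44 without 2 samples. Replicate 2 was the lowest of its group in *Sst* and the highest in *Cck* in all 4 groups, and the lowest in *Npy* in 3 of the 4. The permutations within groups take no account of the replicate numbers. Without the 4 samples numbered 2, a choice made after seeing the data, r was 0.564 (permutation, adjusted p = 0.33) for *Sst* and *Npy* and 0.038 (adjusted p = 0.975) for *Sst* and *Cck* over 13 samples, while *Ppy* and *Pyy* had 0.926 and *Gcg* and *Ppy* 0.87 (permutation, adjusted p = 0.0339 for both). *Gcg* and *Sst*, the α and δ cell hormones, had r = 0.039 (permutation, adjusted p = 0.94) and rho = 0.194 (adjusted p = 0.559), and r = 0.659 (adjusted p = 0.0339) without the samples numbered 2. *Sst* and *Pyy* had rho = 0.787 (permutation, adjusted p = 0.00504) but r = 0.581 (adjusted p = 0.127), and r = 0.792 (adjusted p = 0.0339) without the samples numbered 2. What a replicate number stands for is not given in the sources used here.

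**Figure D4:**
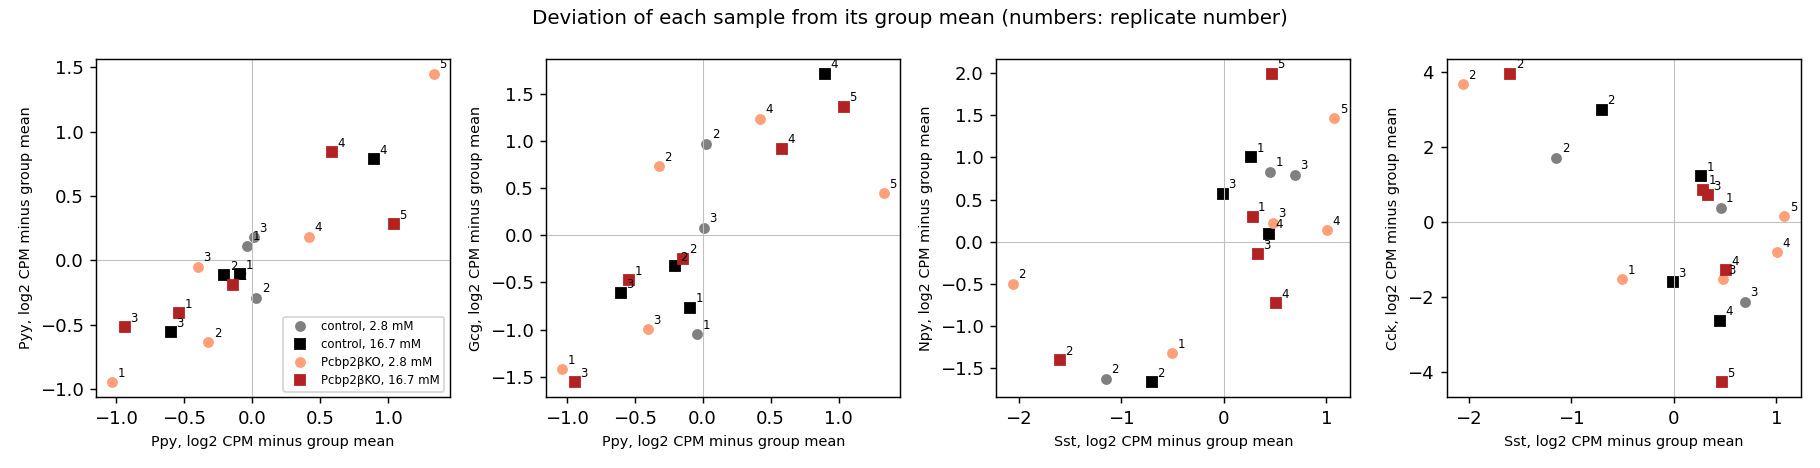
Deviation of log2 CPM from the group mean for 4 pairs of hormone genes, 1 point per sample, numbered by replicate. *Pyy* follows *Ppy* (r = 0.904) and *Gcg* follows *Ppy* (r = 0.784), while the 4 samples numbered 2 lie at the low end of *Sst* and the high end of *Cck* (r = -0.699).

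Ratios within a library, which do not depend on how libraries are scaled, were compared for *Gcg* to *Sst*, *Gcg* to *Ppy* and *Ppy* to *Pyy* in the 4 simple comparisons, 12 tests in all. None passed after adjustment. In *Pcbp2*βKO cells the log2 ratio of *Gcg* to *Ppy* was 0.94 ± 0.88 at low and -0.14 ± 0.39 at high glucose (SD, n = 5 and 5), a difference of -1.08 (exact permutation test, 2-sided p = 0.0238, adjusted p = 0.171). In control cells the log2 ratio of *Ppy* to *Pyy* was 1.28 ± 0.28 at low and 0.67 ± 0.09 at high glucose (SD, n = 3 and 4), a difference of -0.61 (exact permutation test, 2-sided p = 0.0286, the smallest this design can give, adjusted p = 0.171). *Gcg* to *Sst* differed by -1.92 with glucose in knockout cells (exact permutation test, 2-sided p = 0.0714, adjusted p = 0.214).

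For each hormone gene, the genes with the most similar deviations were named among 10010 with a mean of at least 5 CPM, over 17 samples that share their libraries and depth. *Gcg* was most like *Mbip* (r = 0.892), and *Rrm2b*, *Rbp4* and *Cbfa2t2* were also among its leading 5. *Ppy* and *Pyy* had *Terf2ip* first (r = 0.945 and 0.943) and each other among the leading 5. *Sst* was most like *Wdfy3* (0.877), *Npy* like *Nelfb* (0.890), *Gast* like *Sqle* (0.918), which encodes squalene epoxidase of sterol synthesis, and *Cck* like *Fmn1* (0.947). With this many candidates and 17 samples, these are descriptions.

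Since RNA of other islet cells can enter a sort, marker genes of those cells were set beside the hormones. Of the 8 α cell markers, 7 were tested, and their summed level was 255 to 273 CPM in control cells at low, 313 to 1415 at high, 285 to 523 in knockout cells at low and 433 to 2090 CPM at high glucose. At low glucose *Slc7a2*, a transporter of basic amino acids, was its largest part (means of 177 CPM in control and 213 CPM in knockout cells), and at high glucose *Ttr* and *Gc* were. *Ttr* and *Gc* rose with glucose in both genotypes, while the log2 fold change of *Gcg* was negative in both. The α cell transcription factors *Irx2* and *Irx1* were near 0. *Irx2* was 0.0232 to 1.27 CPM over all samples, and *Irx1* was listed at 0 in 9 samples, all 5 knockout samples at high glucose among them, and reached 0.104 CPM. *Irx2* had log2 fold changes with glucose of -1.06 (SE 0.58, edgeR adjusted p = 0.182) in knockout and -0.84 (SE 0.74, adjusted p = 0.499) in control cells, and its deviations from the group means had r = 0.633 with those of *Gcg*, over 17 samples that share their libraries.

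Of the 4 δ cell markers, 0 rose and 2 fell with glucose in knockout cells and 1 fell in control cells, where 10.5% and 6.7% of all genes were called lower, and *Sst* itself was not called in either. *Hhex*, a δ cell transcription factor, was 4.17 to 11.4 CPM in knockout samples at low and 1.11 to 5.63 CPM at high glucose, a log2 fold change of -1.44 (SE 0.53, edgeR adjusted p = 0.049). *Rbp4*, a retinol carrier, fell in both genotypes (-1.07 with an adjusted p of 0.0244 in knockout and -1.26 with 0.0432 in control cells). The summed δ cell markers were 123 to 177 CPM and 47.2 to 114 CPM in control cells at low and high glucose and 187 to 388 CPM and 67.8 to 266 CPM in knockout cells. *Rbp4* was the largest part, with group means of 60.9 to 285 CPM, against at most 8.06 CPM for *Hhex*, 2.225 for *Efcc1* and 1.69 for *Ghsr*. The deviations of *Rbp4* had r = -0.001 with those of *Sst*, 0.854 with *Gcg* and 0.836 with *Ppy*. *Hhex*, *Ghsr* and *Efcc1* had r = 0.618, 0.638 and 0.449 with *Sst*. With *Gcg*, *Ppy* and *Pyy*, *Hhex* had r = 0.633, 0.647 and 0.69, so it was not closest to *Sst*. *Ghsr* had 0.435, 0.564 and 0.676 with the same genes, and *Efcc1* had 0.147, 0.215 and 0.296. Of the 4 PP cell markers, *Etv1* rose with glucose in control cells (1.38, adjusted p = 0.0414) and *Aqp3* in knockout cells (1.67, adjusted p = 0.0427), opposite in sign to the log2 fold change of *Ppy*. Of the 4 macrophage markers, *Ptprc*, *Cd68* and *Adgre1* fell and *C1qa* rose with glucose in knockout cells, and *C1qa* was lower in knockout than in control cells at low glucose. Summed markers were at most 0.388 CPM for acinar, 1.14 CPM for endothelial and 1.23 CPM for stellate cells in any sample, and 8.36 to 800 CPM for ductal cells. The ductal sum was mostly *Spp1*, with group means of 30.1 to 328 CPM. The other ductal markers, *Krt19*, *Sox9* and *Muc1*, reached at most 2.17, 1.07 and 0.594 CPM. No α, δ or PP cell marker was called between genotypes. The part of other cells' RNA in the hormone results was not tested.

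**Figure D5:**
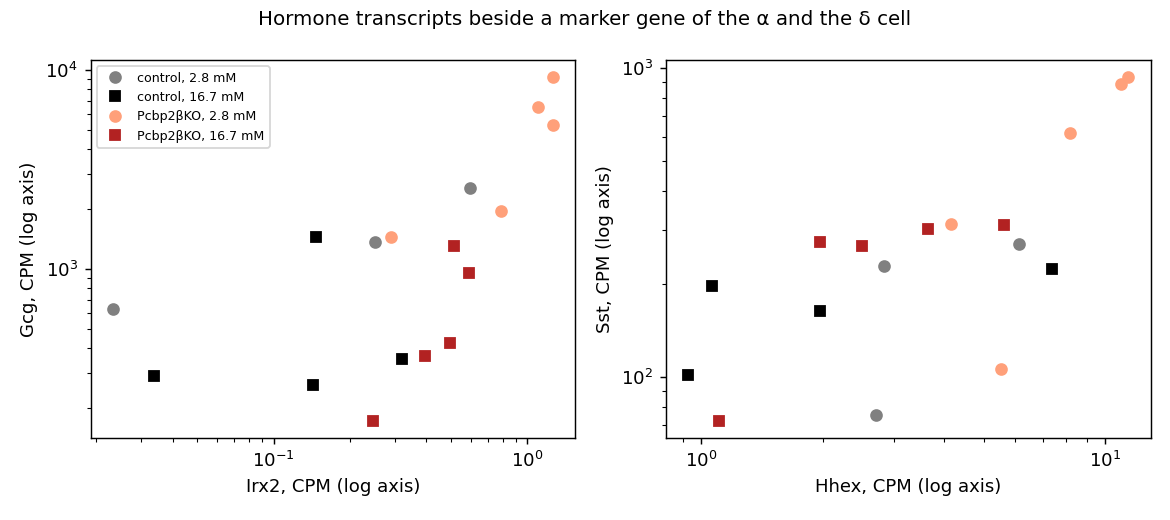
CPM of *Gcg* against *Irx2* and of *Sst* against *Hhex* in each sample (both axes log), by group. The knockout samples at low glucose hold the highest *Gcg* (up to 9158 CPM) and the highest *Irx2* (up to 1.27 CPM), and the 4 samples with the lowest *Sst* (72.0 to 106 CPM) lie between 0.926 and 5.54 CPM of *Hhex*.

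The receptors of these hormones were listed as 15 genes, of which 8 were tested. For glucose, 1 rose in control cells and in *Pcbp2*βKO cells 3 rose and 1 fell, where 13.9% and 23.9% of all genes were called (7.16% and 13.5% higher). *Gcgr*, the glucagon receptor, rose in both genotypes, by 1.17 (SE 0.32, edgeR adjusted p = 0.0176) in control and 1.48 (SE 0.26, adjusted p = 0.000348) in knockout cells on the log2 scale. In CPM it went from 26.8 ± 9.3 (SD, n = 3) to 60.6 ± 13.04 (SD, n = 4) and from 37.4 ± 11.2 to 104.6 ± 38.4 (SD, n = 5 each). *Glp1r*, the receptor of the glucagon-like peptide made from the same precursor, rose in knockout cells (0.84, adjusted p = 0.00821) from 520 ± 107 to 931 ± 235 CPM, and the test of the difference between its glucose responses gave an edgeR adjusted p of 1. *Sstr3*, the somatostatin receptor with the highest level here, was 96.6 to 172 CPM in all samples, with log2 fold changes from -0.17 to 0.10 and no call. *Sstr2* fell (-2.74, adjusted p = 0.0249) and *Sstr5* rose (2.28, adjusted p = 0.0301) with glucose in knockout cells, both at 3.01 CPM or less. *Npy1r*, the only tested NPY receptor of those listed, was at 0.241 CPM or less. No receptor was called between genotypes, and the median log2 fold change of the tested receptors was 0.06 for glucose in control and 0.79 in knockout cells, against 0.04 and 0.01 over all genes tested.

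Of 27 other regulatory peptide genes, 16 were tested. With glucose 6 rose in control cells and 6 rose and 1 fell in knockout cells, against the same 13.9% and 23.9% of all genes. *Pdyn*, the dynorphin precursor, rose most in both, by 6.28 (SE 0.80, edgeR adjusted p = 0.000337) in control and 6.73 (SE 0.65, adjusted p = 2.81e-06) in knockout cells on the log2 scale, from 5.61 to 434 and from 3.69 to 390 CPM. *Trh* (thyrotropin-releasing hormone), *Pthlh* (parathyroid hormone-like hormone), *Vgf*, *Cartpt* and *Iapp* (islet amyloid polypeptide) were the others that rose in both genotypes. *Ghrl*, the ghrelin gene, fell in knockout cells (-4.39, adjusted p = 0.0378), where the highest sample was 3.24 CPM and the rest under 1. *Penk*, the enkephalin precursor, was lower in knockout than in control cells at high glucose (-5.41, SE 0.95, adjusted p = 0.0035), with 0.154 to 0.530 against 0.719 to 41.8 CPM, and was the 1 of 16 called between genotypes, where 1.71% of all genes were called. Of 8 genes of peptide processing, 2 rose with glucose in control and 4 in knockout cells, against 7.16% and 13.5% of all genes. *Pcsk1*, a prohormone convertase, rose by 1.96 (adjusted p = 0.0031) and 2.65 (adjusted p = 1.54e-05) on the log2 scale and *Pcsk2*, the convertase that yields glucagon, by 1.29 (0.0125) and 1.02 (0.00672). *Pam*, which forms the C-terminal amide, rose in knockout cells (1.61, adjusted p = 0.0159), as did *Dpp4*, a peptidase that cleaves glucagon-like peptides, PYY and NPY (0.77, adjusted p = 0.0479).

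At the level of transcripts, *Sst*, *Npy* and *Gast* had 1 quantified transcript each. *Gcg-201* held 89.6 to 94.9% of the *Gcg* counts, *Ppy-201* 75.5 to 80.5% of the *Ppy* counts and *Pyy-201* 74.4 to 79.5% of the *Pyy* counts over all 17 samples.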

How the data were processed

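The authors sorted the cells into TRIzol, made libraries with an ultra-low-input polyA kit and, per the labels, estimated transcript abundance with kallisto on mm39 (GRCm39). They deposited estimated counts and TPM per transcript for each of 17 samples; the estimated counts are not normalised, and the deposited TPM correct for effective length and sum to one total per sample. Effective lengths, also deposited, served only for length-corrected counts. The batch levels of the authors' model, kallisto's settings and whether counting used strand are not given in the sources used here, so no batch term was fitted.

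Estimated counts of 142376 transcripts were summed by gene symbol (54456), rounded, filtered (filterByExpr, 22733 genes kept) and tested with edgeR 4.0.16 (TMM factors 0.75 to 1.29, 4 group means, quasi-likelihood F test, Benjamini-Hochberg over all genes). The thresholds for a call were 0.05 for the adjusted p and 1.5 for the fold change. Each SE came from the estimate and its F statistic. Log2 CPM used a prior count of 2. Correlations used 1e+05 permutations within groups, and ratios all regroupings. Same-numbered control samples at low and high glucose correlated in their deviations from the group means (r = 0.198, 0.124 and 0.259), each over 0.1, so the numbers were taken to pair them; in every other pair of groups at least 1 pair was lower. A replicate block, where fitted, covered all 17 samples, knockout samples included, unless control samples alone are named. No 2 libraries of a group were alike within sampling noise (chi-square per degree of freedom of 32.3 or more). Of the transcripts, 141102 matched GENCODE M39 by ID; the authors' annotation release is older for some of them. DESeq2 1.42.0, limma 3.58.1 and the other alternatives stand in the closing section. The scripts were tested on simulated data. The hormone genes and all gene lists were chosen with earlier results of these data known. The text names all 7 hormone genes in every comparison, up to 4 called genes per list and comparison beside the defining markers, and the 5 genes with the most similar deviations or the first of them. Some named genes are not reported here.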

Additional observations from a re-analysis of the deposited data

Results flagged for a closer look

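*Sst* in *Pcbp2*βKO cells at high glucose, replicate 2, was far below the other 4 samples of its group, at 72.0 CPM against 265 to 310 CPM. Its gap to the nearest sample was 0.892 of the group's range. It was 1 of 21 combinations of gene and group tested in this way, and chance flags about 1 in 20. Replicate 2 also held the lowest *Sst* in each of the other 3 groups (75.5, 101 and 106 CPM). The cause was not tested.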

How the results depend on the processing

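The number of hormone genes called for glucose in control cells, 0, was 1 without the filter on low counts (6.96% of all genes called) and in DESeq2 (17.2%). The number was 3 in limma on log2(TPM + 0.1) (39.1%), in limma on log2(TPM + 1) (30.6%) and without the 3 samples that stand apart (22%). With only the 2 groups fitted it was 2 (12.8%), and on leaving out 1 sample 0 to 3 (5.81 to 19.8%). Taking the replicate number as a block gave 4 (21% of all genes), and 5 with control samples alone (28.7%), a fit chosen after seeing the data. Those 5 were *Gcg*, *Ppy*, *Pyy*, *Gast* and *Cck*. For the knockout at low glucose the count of 1 was 3 without the filter (1.22% of all genes called), in DESeq2 (3.68%) and without the 3 samples (3.02%). It was 2 (*Npy* and *Ppy*) with the block (2.63%), and 1 throughout on leaving out 1 sample (1.02 to 2.35%). For the knockout at high glucose it was 0 with total counts (1.56% of all genes called), length-corrected counts (1.62%) or only the 2 groups (1.22%). On leaving out 1 sample it was 0 to 1 (0.943 to 2.89%). The 5 calls for glucose in knockout cells were 4 to 7 on leaving out 1 sample (20.6 to 25.4% of all genes). The replicate block gave 13 calls among all genes for the interaction against 1, and 4769 against 3150 for glucose in control cells. Without the filter 14 genes were called for the interaction, in DESeq2 32 and without the 3 samples 2. Among all genes limma on log2(TPM + 0.1) called 8891 for glucose in control and 12435 in knockout cells against 3150 and 5436, and total counts called 4834 there in control cells. Of these limma calls 8451 and 11780 were lower, with median log2 fold changes of -0.555 and -0.712 over all genes.

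Without the 3 samples the correlations of *Gcg* with *Ppy* (0.593) and of *Sst* with *Cck* (-0.739) no longer passed. Pairs that did not pass with all 17 samples changed sign, to -0.231 (*Gcg* with *Sst*), -0.132 (*Gcg* with *Npy*), 0.272 (*Gcg* with *Gast*), 0.458 (*Gcg* with *Cck*), 0.655 (*Ppy* with *Gast*), 0.248 (*Ppy* with *Cck*), 0.623 (*Pyy* with *Gast*) and 0.007 (*Pyy* with *Cck*). Without the 4 samples numbered 2, chosen after seeing the data, *Sst* with *Npy* (0.564) and with *Cck* (0.038, a change of sign) no longer passed. *Gcg* with *Sst* (0.659), *Sst* with *Ppy* (0.752) and with *Pyy* (0.792) and *Gast* with *Cck* (0.748) then passed, and *Sst* with *Gast* (0.032) and *Pyy* with *Gast* (0.025) changed sign. Log2 fold changes with no call that changed sign were those near 0. For *Npy* with glucose in control cells they were -0.38 with total counts, -0.74 and -0.72 in limma on log2(TPM + 0.1) and log2(TPM + 1), and -0.047 with length-corrected counts. *Gast* for the knockout at low glucose was -0.0092 in DESeq2, -0.70 and -0.24 in limma, -0.65 with the block and -0.0024 with only the 2 groups, and at high glucose -0.0086 with DESeq2 size factors, -0.0081 in DESeq2, -0.29 and -0.11 in limma, -0.0033 with only the 2 groups and -0.0052 without *Ins1*, *Ins2* and *Iapp* (chosen after seeing the data). Its interaction was 0.001 in DESeq2, 0.41 and 0.13 in limma, 0.072 with length-corrected counts, 0.78 with the block and 0.22 without the 3 samples. *Cck* for the knockout at low glucose was -0.51 and -0.035 in limma, and *Gcg* at high glucose -0.0004 with the block.

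Leaving out 1 sample also turned signs without a call, over ranges of -1.66 to 3.68 (*Cck*, interaction), -1.27 to 2.40 and -2.89 to 1.72 (*Cck*, knockout at high and low glucose), -0.64 to 1.60 (*Gast*, interaction), -0.63 to 0.66 and -1.59 to 0.28 (*Gast*, knockout at high and low glucose), -0.29 to 1.08 (*Gcg*, knockout at high glucose), -0.42 to 0.36 (*Npy*, glucose in control cells) and -0.54 to 0.17 (*Sst*, glucose in control cells). For log2 ratios these were -0.78 to 0.20 (*Gcg* to *Ppy*, glucose in control cells), -0.23 to 0.75 (*Gcg* to *Ppy*, knockout at low glucose), -0.57 to 1.24 and -0.56 to 0.26 (*Gcg* to *Sst*, knockout at low and high glucose) and -0.10 to 0.14 (*Ppy* to *Pyy*, knockout at low glucose). The cause of these changes was not tested. Depth limits *Cck* and *Gast*, which rest on few counts, and the groups of 3 to 5 samples limit every test.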
